A study of Mus musculus with 17 samples.

Results

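The 9 genes described here encode the pore subunits of potassium channels that hold neurons back from firing: the M-type channels (Kcnq3 and Kcnq5), the Erg channel (Kcnh2), the calcium-activated channels (Kcnma1, Kcnn1, Kcnn2 and Kcnn4) and the sodium-activated channels (Kcnt1 and Kcnt2). They were chosen by symbol for their function, with earlier results of these data known. Each symbol was matched to its Ensembl identifier, giving 9 of the 78298 genes in the count tables. RNA from lumbar dorsal root ganglia (DRG, the L4 to L6 clusters of sensory neuron cell bodies and their supporting cells) of mice was sequenced in 17 libraries. Wild-type (WT) mice and mice labelled as knockouts (KO) of Twik1, the potassium channel encoded by Kcnk1, had either a sham operation or chronic constriction injury (CCI), in which ligatures are tied around a nerve. There were 5 sham WT, 5 CCI WT, 4 sham KO and 3 CCI KO libraries, and every library carried the label day 30. Strain, sex, age, the deleted part of Kcnk1, the injured side and the number of animals behind a library are details that the labels do not give. The p-values therefore reflect library-to-library spread, which may be technical. With edgeR's test none of the 9 channels differed past the threshold in any of the 6 comparisons of injury and genotype, while DESeq2 or limma-voom called Kcnt2, Kcnt1 and Kcnq3 in 1 comparison each, and the smallest p-values belonged to Kcnt2 and Kcnt1 with injury and to Kcnq3 and Kcnt2 with genotype.

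These channels share a role and differ in what opens them. M-type channels open slowly as the membrane nears threshold and close when receptors acting through phospholipase C deplete the membrane lipid that keeps them open, which makes the neuron more excitable. Erg channels pass current mainly as the membrane repolarises, calcium-activated channels open on calcium that enters or is released during spikes, and sodium-activated channels open on sodium that enters during spikes. In sensory neurons M-type and sodium-activated currents are known as brakes on firing, and drugs that open M-type channels reduce firing in pain models.

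The libraries held between 52.5 M and 73.6 M (mega) counts assigned to genes. Kcnk1 itself, the targeted gene, averaged 127 ± 18.9 CPM (counts-per-million, mean ± SD, n = 5) in sham WT, 114 ± 6.83 (n = 5) in CCI WT, 89.8 ± 18.01 (n = 4) in sham KO and 83.9 ± 5.36 (n = 3) in CCI KO. Its transcript was thus lower on average in the libraries labelled KO but present in each (log2 difference −0.47 ± 0.09 SE, edgeR adjusted p = 0.00746). In sham the genotypes overlapped, from 94.3 to 139 CPM in WT and from 75.1 to 114.5 in KO. In CCI they did not, with 106 to 121 CPM in WT and 78.3 to 89 in KO. Sham KO libraries 1 and 2 stood apart: over 12 axon injury genes, on a scale with the sham WT mean at 0 and the CCI WT mean at 1, their median positions were 0.86 and 0.77, against 0.09 and 0.03 in sham KO libraries 3 and 4 and 0.71 to 1.09 in CCI WT. Some of the results that rest on the sham KO group, though not all, are therefore also given without that pair. Summed pan-neuronal markers were 9325 ± 676, 9601 ± 167, 9667 ± 51.8 and 10140 ± 380 CPM in sham WT, CCI WT, sham KO and CCI KO, and myelinating Schwann cell markers were 11660 ± 1668, 12130 ± 1772, 5645 ± 863 and 6493 ± 749 CPM. Tubb3, part of the pan-neuronal sum and so of the pan-neuronal scaling used below, averaged 1984, 2551, 2199 and 2673 CPM in that group order. With injury in WT 1 of the 12 pan-neuronal markers was past the threshold, as higher, where 3.06% of all genes were. Below 0 were 7 of the 12. In bulk tissue, fewer cells of a type and less RNA per cell cannot be told apart. Each count table's name also holds a number of unstated meaning, identical for the 9 sham libraries and different in CCI WT and in CCI KO. If it marks a batch, it cannot be told apart from injury, nor from genotype within CCI.

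Kcnh2 and Kcnt1 were the most abundant of the 9 transcripts per length, and Kcnt2, Kcnn2 and Kcnq3 the scarcest. Levels of different genes are compared here as CPM per kilobase of merged exon. In sham WT (n = 5) Kcnh2 stood at 13.6 ± 1.98 CPM per kilobase and Kcnt1 at 12.9 ± 0.998, a difference smaller than their spread. Kcnn1 followed at 4.96 ± 0.72 and Kcnn4 at 3.74 ± 0.665, then Kcnq5 at 2.38 ± 0.475 and Kcnma1 at 1.93 ± 0.151. Kcnn1 and Kcnn4 differed by less than the sum of their SDs, as did Kcnq5 and Kcnma1. Kcnq3 at 0.808 ± 0.18, Kcnn2 at 0.616 ± 0.107 and Kcnt2 at 0.607 ± 0.083 CPM per kilobase closed the order, and neighbours among these 3 did not differ beyond their spread. Among the 16063 tested protein-coding genes, whose median was 2.59 CPM per kilobase, Kcnh2 lay at percentile 82.8 and Kcnt2 at percentile 26.3.

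**Figure D1:**
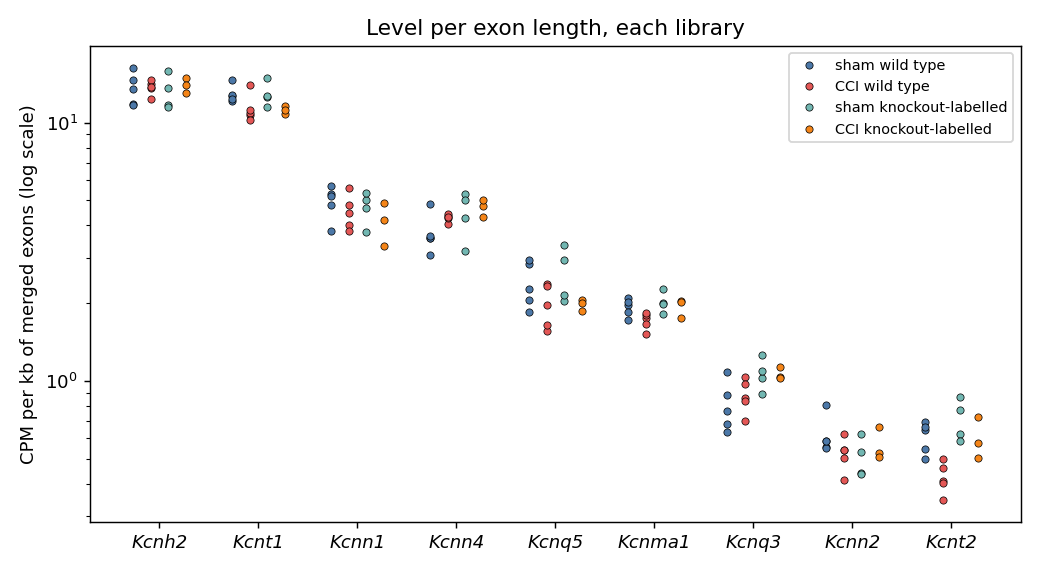
Level of each channel per length in each of the 17 libraries (CPM per kilobase of merged exon, log axis), with the genes in the order of their sham WT mean. Kcnh2 (13.6) and Kcnt1 (12.9) lie above the other 7 genes, and Kcnn2 (0.616) and Kcnt2 (0.607) lie together at the bottom.

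Promoter sequences from RefSeq (GRCm38.p6, from 250 bases before to 50 after the annotated start) were matched for 6 of the 9 channels, and those of Kcnh2, the most abundant per length, and Kcnt2, at the bottom of the order, are printed to show the ends of that order. The Kcnh2 window is chr5:24329542-24329841 on the minus strand and the Kcnt2 window is chr1:140245468-140245767 on the plus strand. The gene coordinates below are on GRCm39, so the place of a window within its gene cannot be read from them. Whether either window holds the start of the full-length transcript was not tested. Capitals mark matches to GGGCGG (the GC box) or CCAAT, each searched on both strands.
Kcnh2: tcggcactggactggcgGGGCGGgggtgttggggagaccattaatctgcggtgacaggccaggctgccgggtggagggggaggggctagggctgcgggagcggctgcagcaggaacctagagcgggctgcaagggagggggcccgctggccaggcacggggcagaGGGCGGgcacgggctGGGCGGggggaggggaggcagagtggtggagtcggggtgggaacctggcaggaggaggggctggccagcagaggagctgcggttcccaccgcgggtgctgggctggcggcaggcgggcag
Kcnt2: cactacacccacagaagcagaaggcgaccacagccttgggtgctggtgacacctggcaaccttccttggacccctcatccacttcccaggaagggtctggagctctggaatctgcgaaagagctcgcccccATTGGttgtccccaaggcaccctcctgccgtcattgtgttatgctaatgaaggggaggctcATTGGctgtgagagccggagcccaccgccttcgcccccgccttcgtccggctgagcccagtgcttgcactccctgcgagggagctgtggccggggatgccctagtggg
The Kcnh2 window is 74.3% G or C, holds 19 CpG dinucleotides and matches GGGCGG 3 times. The Kcnt2 window is 62.7% G or C, holds 12 CpG dinucleotides and matches CCAAT 2 times, in both cases as ATTGG on the printed strand. Of 32851 promoters of this length, 35.7% hold GGGCGG and 37.4% hold CCAAT, and the median is 52.7% G or C with 7 CpG dinucleotides. Neither window matches the TATA box TATAAA (held by 13.6% of promoters). Neither matches the AP-1 motif TGANTCA (held by 7.81%) or the CRE motif TGACGTCA (held by 1.79%). These are matches of letters and were not tested as sites.

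**Figure D2:**
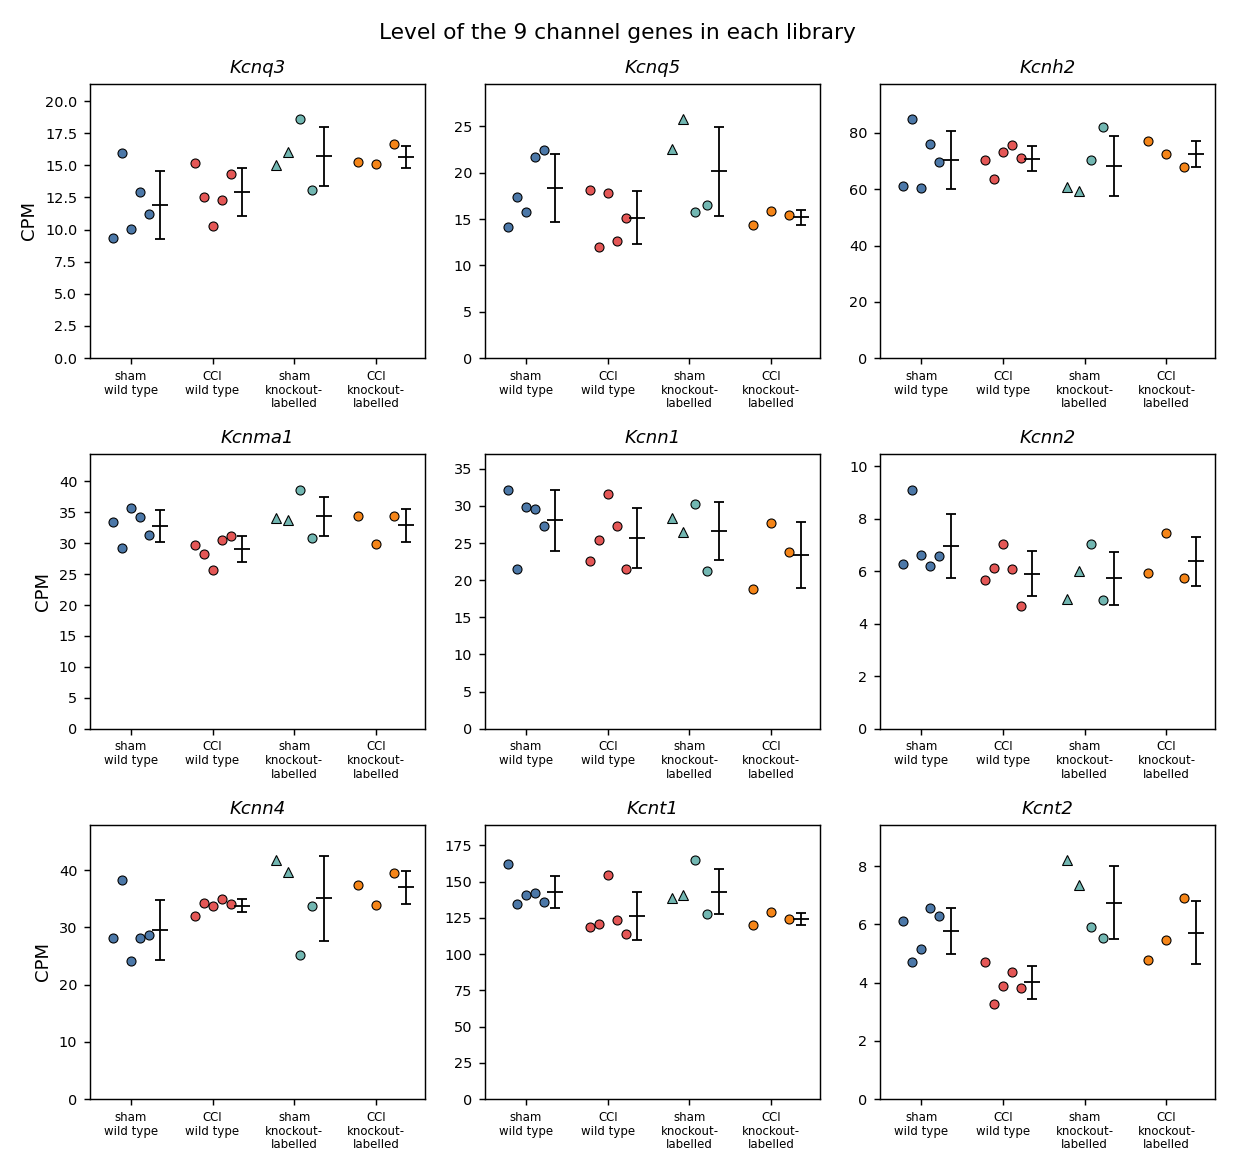
CPM of each of the 9 channels in each library, 1 panel per gene with its own axis from 0, by group. Points are libraries, triangles are sham KO libraries 1 and 2, and the bar beside each group is its mean ± SD. The groups overlap in nearly every panel, and the CCI WT points of Kcnt2 (3.28 to 4.73) sit at the low end of its axis.

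Kcnq3 (ENSMUSG00000056258, GRCm39 chr15:65858236-66158491) encodes an M-channel subunit that usually assembles with another Kcnq subunit. It stood at 9.33, 15.95, 10.01, 12.9 and 11.2 CPM in sham WT libraries 1 to 5 and at 15.2, 12.6, 10.3, 12.3 and 14.3 CPM in CCI WT libraries 1 to 5. In sham KO libraries 1 to 4 it was at 15.04, 16.1, 18.6 and 13.1 CPM, and in CCI KO libraries 2 to 4 at 15.3, 15.1 and 16.7 CPM. The KO-labelled libraries lay mostly above the WT ones, but sham WT library 2 and CCI WT libraries 1 and 5 reached the KO range, so the groups overlapped. Means were 11.9 ± 2.65, 12.9 ± 1.89, 15.7 ± 2.28 and 15.7 ± 0.853 CPM in sham WT, CCI WT, sham KO and CCI KO. With injury its log2 difference was 0.12 ± 0.14 in WT (edgeR adjusted p = 0.815) and −0.001 ± 0.16 in KO (edgeR adjusted p = 0.9997). The difference between genotypes averaged over both operations was 0.34 ± 0.11 on the log2 scale (95% interval 0.12 to 0.56, edgeR adjusted p = 0.0928), which missed the threshold of 0.05. The same difference was past it with DESeq2 (adjusted p = 0.0368), with limma-voom (0.0353) and without the filter on low counts (0.0163). It was also past it in edgeR without sham WT library 2, the highest of its group (adjusted p = 0.0206), or without sham KO library 4, the lowest of its group (0.0408). Either removal widens the gap between the genotype means by its choice of library, so neither adds support. The other 15 of the 17 fits leaving out 1 library were not past the threshold, with edgeR adjusted p up to 0.205. Without sham KO libraries 1 and 2 the difference was 0.35, and edgeR gave an adjusted p of 0.19. The summed Schwann cell markers given above were lower in the same KO-labelled libraries, and their part in this value was not tested.

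Kcnq5 (ENSMUSG00000028033, chr1:21468627-22032166), the other M-channel subunit, was more abundant than Kcnq3 per length, by 3.01-fold in sham WT. It stood at 14.2, 17.4, 15.8, 21.7 and 22.5 CPM in sham WT and at 18.2, 11.95, 17.9, 12.7 and 15.2 CPM in CCI WT. In sham KO it was at 22.6, 25.8, 15.7 and 16.6 CPM and in CCI KO at 14.3, 15.9 and 15.4 CPM. The 2 highest values of sham KO belonged to libraries 1 and 2, the pair with a CCI-like axon injury position, while the CCI groups held lower Kcnq5. After injury the log2 difference was −0.27 ± 0.15 in WT (edgeR adjusted p = 0.477) and −0.41 ± 0.19 in KO (edgeR adjusted p = 0.544). Without that pair of libraries the KO difference was −0.09 ± 0.19 (edgeR adjusted p = 0.935), and the genotype difference in sham turned from 0.14 to −0.18.

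Kcnh2 (ENSMUSG00000038319, chr5:24524567-24556762), the Erg channel best known for repolarising the heart, had a log2 difference near 0 with injury in WT. It ranged from 60.5 to 84.8 CPM in sham WT, 63.8 to 75.6 in CCI WT, 59.5 to 82.1 in sham KO and 67.8 to 77.0 in CCI KO, with means between 68.2 ± 10.5 and 72.5 ± 4.63 CPM. The log2 difference with injury in WT was 0.01 ± 0.09, and its 95% interval ran from −0.19 to 0.20 (edgeR adjusted p = 0.991). Sham KO libraries 1 and 2 averaged 60.1 CPM against 76.3 CPM in libraries 3 and 4, so that without the pair the injury difference in KO turned from 0.09 to −0.08, in neither case past the threshold.

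Kcnma1 (ENSMUSG00000063142, chr14:23339499-24064559) encodes the BK channel, opened jointly by voltage and calcium. It ranged from 29.2 to 35.7 CPM in sham WT, 25.7 to 31.1 in CCI WT, 30.9 to 38.6 in sham KO and 29.8 to 34.5 in CCI KO. Its log2 difference with injury was −0.17 ± 0.08 in WT (edgeR adjusted p = 0.318) and −0.06 ± 0.10 in KO (edgeR adjusted p = 0.932). The counting of strand is not given and the library kit keeps none, and 6.26% of the exon bases of Kcnma1 are shared with an annotated antisense gene.

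The small-conductance channels Kcnn1 and Kcnn2, which shape the after-hyperpolarisation, gave no call in any comparison with any of the 3 tools. Kcnn1 (ENSMUSG00000002908, chr8:71294693-71316409) averaged 28.0 ± 4.08, 25.7 ± 4.04, 26.6 ± 3.89 and 23.4 ± 4.45 CPM in sham WT, CCI WT, sham KO and CCI KO, and individual libraries ran from 18.8 to 32.2 CPM. Kcnn2 (ENSMUSG00000054477, chr18:45401927-45818953) averaged 6.96 ± 1.21, 5.91 ± 0.856, 5.72 ± 1.02 and 6.38 ± 0.931 CPM in the same order. Antisense genes share up to 11.3% of the exon bases of Kcnn1 and up to 11.8% of those of Kcnn2. The log2 difference with injury in WT was −0.13 ± 0.13 for Kcnn1 (edgeR adjusted p = 0.778) and −0.24 ± 0.16 for Kcnn2 (edgeR adjusted p = 0.571). For Kcnn2 the difference between the injury effects of the genotypes was 0.39 ± 0.24 with a 95% interval from −0.11 to 0.89 (edgeR adjusted p = 0.903), or 0.33 without sham KO libraries 1 and 2.

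Kcnn4 (ENSMUSG00000054342, chr7:24066915-24086115) encodes the intermediate-conductance channel, which immune cells, red blood cells and some neurons express. It stood at 28.2, 38.3, 24.2, 28.2 and 28.7 CPM in sham WT and at 32.0, 34.3, 33.8, 34.9 and 34.1 CPM in CCI WT. In sham KO it was at 41.7, 39.7, 25.2 and 33.7 CPM and in CCI KO at 37.5, 33.9 and 39.6 CPM. Apart from sham WT library 2, the sham WT libraries lay below every CCI WT library. The log2 difference with injury in WT was 0.20 ± 0.12 (95% interval −0.05 to 0.44, edgeR adjusted p = 0.514). The summed level of 10 macrophage markers differed between the same groups, ranging from 57.9 to 111 CPM in sham WT and from 85.8 to 180 CPM in CCI WT, with the defining marker Aif1 at no more than 1.14 CPM in any library. By library that sum was 111, 57.9, 69.0, 63.8 and 61.5 CPM in sham WT libraries 1 to 5. It was 89.4, 77.0, 104 and 110 CPM in sham KO libraries 1 to 4, and ran from 114 to 145 CPM in CCI KO. The part of macrophages in the Kcnn4 values was not tested. The genotype difference in sham, 0.25 ± 0.12 (edgeR adjusted p = 0.456), was 0.005 without sham KO libraries 1 and 2, where Kcnn4 averaged 40.7 CPM against 29.5 CPM in libraries 3 and 4.

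Kcnt1 (ENSMUSG00000058740, chr2:25753746-25809578), which encodes the sodium-activated channel Slack, had the highest CPM of the 9. It stood at 162, 134, 140.5, 142 and 136 CPM in sham WT and at 119, 121, 155, 124 and 114 CPM in CCI WT. In sham KO it was at 139, 140.6, 165 and 128 CPM and in CCI KO at 119.9, 129 and 124 CPM. Of the CCI WT libraries 4 lay below all 5 sham WT libraries, and library 3 lay among the highest of them. The log2 difference with injury was −0.18 ± 0.08 in WT (95% interval −0.34 to −0.02, edgeR adjusted p = 0.265) and −0.20 ± 0.09 in KO (edgeR adjusted p = 0.539). Without CCI WT library 3 the WT difference was −0.26 ± 0.07 with an edgeR adjusted p of 0.0213, and limma-voom with quality weights, which gives atypical libraries less weight, also called it (adjusted p = 0.0469). CCI WT library 3 also had the lowest axon injury position of its group, 0.71. Over the 17 fits leaving out 1 library the WT injury difference of Kcnt1 ran from −0.26 to −0.13. Only 1 of them was past the threshold, with edgeR adjusted p up to 0.508. The genotype difference of Kcnt1 was −0.02 in CCI, with a 95% interval from −0.21 to 0.16, and −0.001 in sham, with one from −0.17 to 0.17.

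Kcnt2 (ENSMUSG00000052726, chr1:140173436-140541709), the Slick channel gene and close relative of Kcnt1, had the smallest p-value of the 9 in injured WT ganglia. It stood at 6.13, 4.71, 5.17, 6.56 and 6.28 CPM in sham WT and at 4.73, 3.28, 3.88, 4.35 and 3.80 CPM in CCI WT. In sham KO it was at 8.20, 7.35, 5.91 and 5.53 CPM and in CCI KO at 4.78, 5.45 and 6.90 CPM. The WT groups met only where sham library 2 (4.71 CPM) and CCI library 1 (4.73 CPM) overlapped. The means of 5.77 ± 0.792 and 4.01 ± 0.553 CPM gave a log2 difference of −0.53 ± 0.16, a fold of 0.695 with a 95% interval from −0.86 to −0.19 on the log2 scale (edgeR adjusted p = 0.0772). DESeq2 called the same difference (adjusted p = 0.0284), while limma-voom did not (0.0557). The CCI KO libraries lay above every CCI WT library by a margin of 4.78 against 4.73 CPM at the nearest. The lowest CCI KO and highest CCI WT library tied without TMM scaling (4.70 CPM each), and the groups overlapped when scaled to pan-neuronal counts (4.395 in CCI KO library 2, below 4.66 and 4.42 in CCI WT libraries 1 and 4). The log2 difference of CCI KO from CCI WT was 0.51 ± 0.18 (95% interval 0.13 to 0.89, edgeR adjusted p = 0.309). In sham the genotype difference was 0.22 ± 0.17 (edgeR adjusted p = 0.701) and the injury difference in KO was −0.24 ± 0.19 (edgeR adjusted p = 0.819). Without sham KO libraries 1 and 2, which held the highest Kcnt2 of the series, those differences were −0.01 and about 0 (−0.0004). The difference between its injury effects in the genotypes was 0.29 ± 0.25 (edgeR adjusted p = 0.96), or 0.52 ± 0.28 without that pair (edgeR adjusted p = 0.968). Markers of neuron subtypes are given for the same groups. The summed level of 6 peptidergic nociceptor markers ran from 3413 to 5360 CPM in sham WT, 2841 to 3918 in CCI WT, 4103 to 6512 in sham KO and 4074 to 5365 in CCI KO. With injury in WT 2 of the 6 were past the threshold, as lower, where 3.06% of all genes were past it. Below 0 were 5 of the 6, and their median log2 difference was −0.36. For the mean genotype effect 0 of 6 were past the threshold (2.55% of all genes), with all 6 above 0 and a median of 0.46. The 8 non-peptidergic and itch neuron markers summed to 578 to 788 CPM in sham WT, 558 to 670 in CCI WT, 557 to 812 in sham KO and 544 to 601 in CCI KO. With injury in WT 1 was past the threshold, 8 of 8 were below 0 and the median was −0.28. For the mean genotype effect 1 was past the threshold, 4 were above 0 and 4 below, and the median was 0.01. The 8 large myelinated neuron markers summed to 2621 to 4404 CPM in sham WT, 3245 to 3821 in CCI WT, 3178 to 4020 in sham KO and 3636 to 4373 in CCI KO. With injury in WT 1 of these was past the threshold, as lower, 5 were below 0 and the median was −0.12. For the mean genotype effect 0 of these were past the threshold, 5 were above 0 and the median was 0.02. The part of these subtypes in the values of Kcnt1, Kcnt2 and the other channels was not tested. Kcnt1 exceeded Kcnt2 per length by 21.5 ± 2.75-fold in sham WT, 27.5 ± 5.29-fold in CCI WT, 18.7 ± 4.13-fold in sham KO and 19.1 ± 3.23-fold in CCI KO.

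Injury in WT left 0 of the 9 channels past the threshold with edgeR, where 3.06% of the 23972 tested genes were. At an unadjusted p under 0.05 there were 3 (Kcnma1, Kcnt1 and Kcnt2), where 13.8% of all genes were, while DESeq2 called 1, Kcnt2 (4.71% of all genes), and limma-voom called 1, Kcnt1 (4.97% of all genes). In KO, 0 of 9 were past the threshold with edgeR (0.0834% of all genes), DESeq2 or limma-voom, and 2 (Kcnq5 and Kcnt1) had an unadjusted p under 0.05 (8.63% of all genes). The median log2 difference with injury of the 9 was −0.17 in WT and −0.06 in KO, against −0.007 and −0.005 over all genes. Without sham KO libraries 1 and 2 the count in KO was again 0 of 9, and the log2 differences of channels not yet given so were −0.01 for Kcnq3, −0.08 for Kcnma1, −0.14 for Kcnn1, 0.09 for Kcnn2, 0.33 for Kcnn4 and −0.23 for Kcnt1. No channel separated sham from CCI without overlap in either genotype, where 4.84% of genes did so in WT and 7.56% in KO. With all 17 libraries, all 9 of the 95% intervals lay within a 2-fold change in both genotypes, and 7 of 9 within a 1.5-fold change.

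Genotype in sham gave 0 of 9 past the threshold with edgeR (1% of all genes), DESeq2 or limma-voom, and 1 (Kcnq3) at an unadjusted p under 0.05 (11.4% of all genes). The Kcnq3 difference in sham was 0.40 ± 0.14 (edgeR adjusted p = 0.21), and without sham KO libraries 1 and 2 it was 0.42 (edgeR adjusted p = 0.601). Genotype in CCI also gave 0 of 9 with the 3 tools (0.684% of all genes with edgeR) and 1 (Kcnt2) at an unadjusted p under 0.05 (8.78% of all genes). Kcnt2 was the 1 channel of 9 whose CCI groups did not overlap, a separation lost under the other scalings as given above, where 8.52% of genes did not and 4.15% were higher in KO without overlap. In sham no channel separated the genotypes, where 3.21% of genes did. The mean genotype effect gave 0 of 9 with edgeR (2.55% of all genes), 1 with DESeq2 (4.28% of all genes) and 1 with limma-voom (4.48% of all genes), Kcnq3 in both. At an unadjusted p under 0.05 there were 3 (Kcnq3, Kcnn4 and Kcnt2), where 13.3% of all genes were. The mean genotype effect on Kcnt2 was 0.37 ± 0.12 (edgeR adjusted p = 0.134), and without sham KO libraries 1 and 2 it was 0.25 (edgeR adjusted p = 0.531). That on Kcnn4 was 0.19 ± 0.09 (edgeR adjusted p = 0.376), and without the pair 0.07 (edgeR adjusted p = 0.86). The difference between the injury effects of the genotypes gave 0 of 9 with each tool and 0 at an unadjusted p under 0.05, where edgeR called 0% of all genes and 5.87% had an unadjusted p under 0.05. With all 17 libraries every 95% interval of the 9 lay within a 2-fold change in these 4 comparisons, which bounds the differences at this depth and number of libraries. That bound was not examined without sham KO libraries 1 and 2, where the Kcnt2 difference between injury effects moved from 0.29 to 0.52. These comparisons share groups with each other and with those of injury, so a value in 1 is not a second measurement of another.

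**Figure D3:**
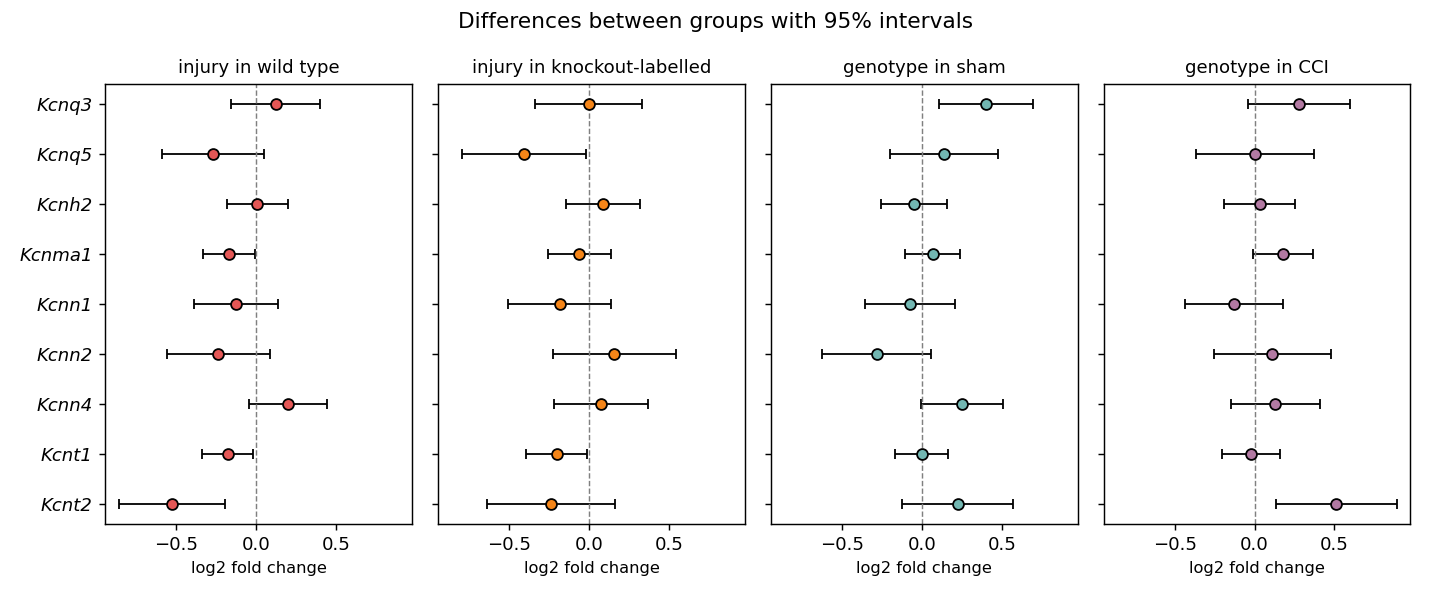
Log2 difference of each channel with its 95% interval for injury in WT, injury in KO, genotype in sham and genotype in CCI (horizontal axis, log2 scale, 0 is no difference). Kcnt2 lies farthest from 0 for injury in WT (−0.53) and genotype in CCI (0.51), and every interval stays within −1 and 1.

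**Figure D4:**
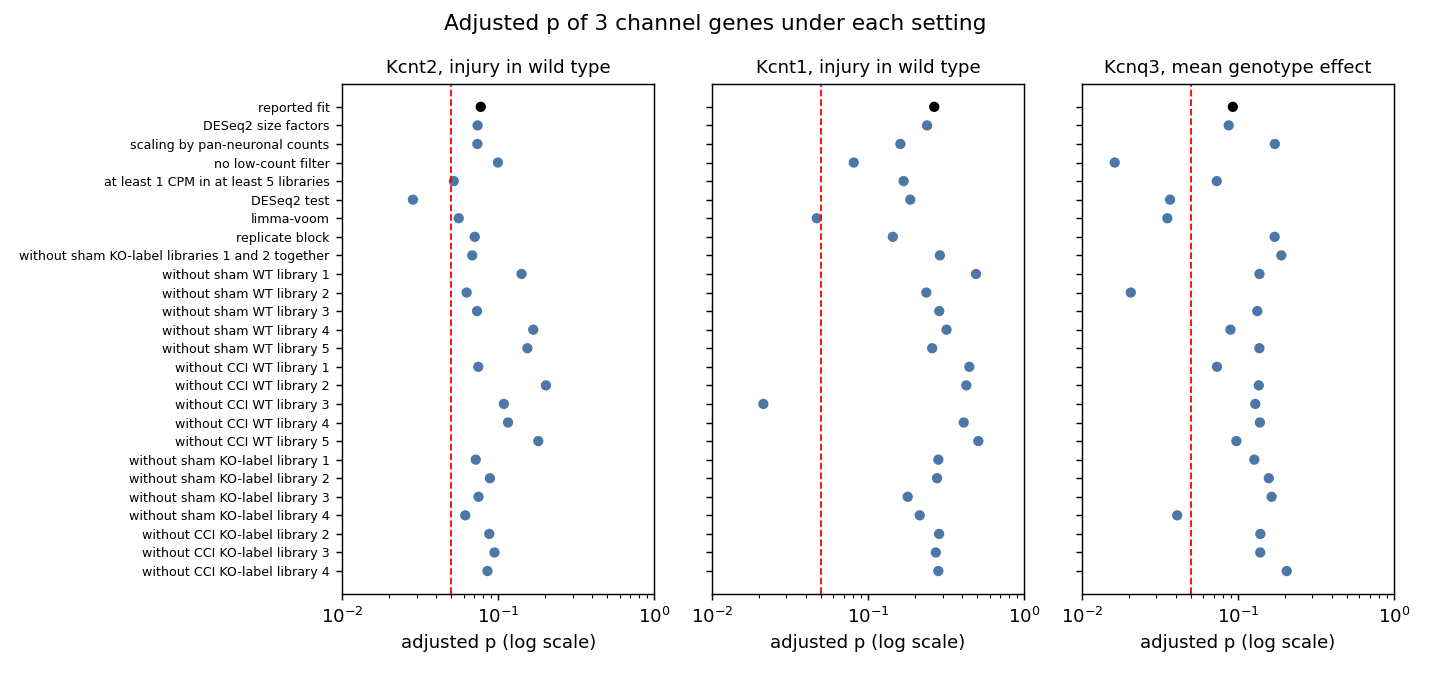
Adjusted p (log axis, red line at 0.05) of Kcnt2 and Kcnt1 for injury in WT and of Kcnq3 for the mean genotype effect, under the reported settings and each alternative, leave-one-out fits included. Each of the 3 channels passes the line for at least 1 alternative: Kcnt2 reaches 0.0284, Kcnt1 0.0213 and Kcnq3 0.0163. Of the 17 leave-one-out fits 0 pass it for Kcnt2, 1 for Kcnt1 and 2 for Kcnq3, with values up to 0.202, 0.508 and 0.205. Of the 8 other settings 1, 1 and 3 pass it.

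Genes that assemble with these channels or control them gave 4 calls for injury in WT among the 67 tested genes of 8 lists (5.97%), where 3.06% of all genes were past the threshold. The lists were chosen with earlier results of these data known, so their shares of calls, here and below, may reflect that choice. Of 9 other Kv7 and EAG-family channels 1 fell, Kcnh7, an Erg-family pore subunit, at 73.6 ± 12.1 CPM in sham WT and 56.4 ± 3.46 in CCI WT (log2 difference −0.38 ± 0.10, edgeR adjusted p = 0.0395). That call held in only 5 of the 17 fits leaving out 1 library, those without sham WT library 3 or any of the 4 sham KO libraries, and Kcnh7 shares 20.6% of its exon bases with other genes, Gca among them. Of 8 calcium sources 1 rose, Itpr1, the receptor that releases calcium from the endoplasmic reticulum, from 11.3 ± 1.14 to 39.4 ± 10.3 CPM (1.80 ± 0.29, edgeR adjusted p = 0.00387). The lowest CCI WT value of Itpr1, 22.7 CPM, was above its highest sham WT value, 13.1 CPM, and the call held without each of the 17 libraries. Of 5 partners of the sodium-activated channels 1 rose and 1 fell. Ano3, an anoctamin that binds Slack in sensory neurons, fell from 128 ± 16.3 to 97.8 ± 7.47 CPM (−0.39 ± 0.10, edgeR adjusted p = 0.0365). The Ano3 call held in 8 of the 17 fits, those without sham WT library 2, CCI WT library 3, CCI KO library 2 or 4, or any sham KO library. The summed peptidergic nociceptor markers averaged 4127 ± 734 CPM in sham WT and 3236 ± 423 in CCI WT, and their part in the Kcnh7 and Ano3 values was not tested. Cyfip1, a binding partner of the fragile X protein, rose from 119 ± 6.97 to 142 ± 11.1 CPM (0.25 ± 0.06, edgeR adjusted p = 0.0134). It was not past the threshold without CCI WT library 5 (adjusted p = 0.0636) or when scaled to pan-neuronal counts (0.161), and it shares 28.6% of its exon bases, some with Nipa2.

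**Figure D5:**
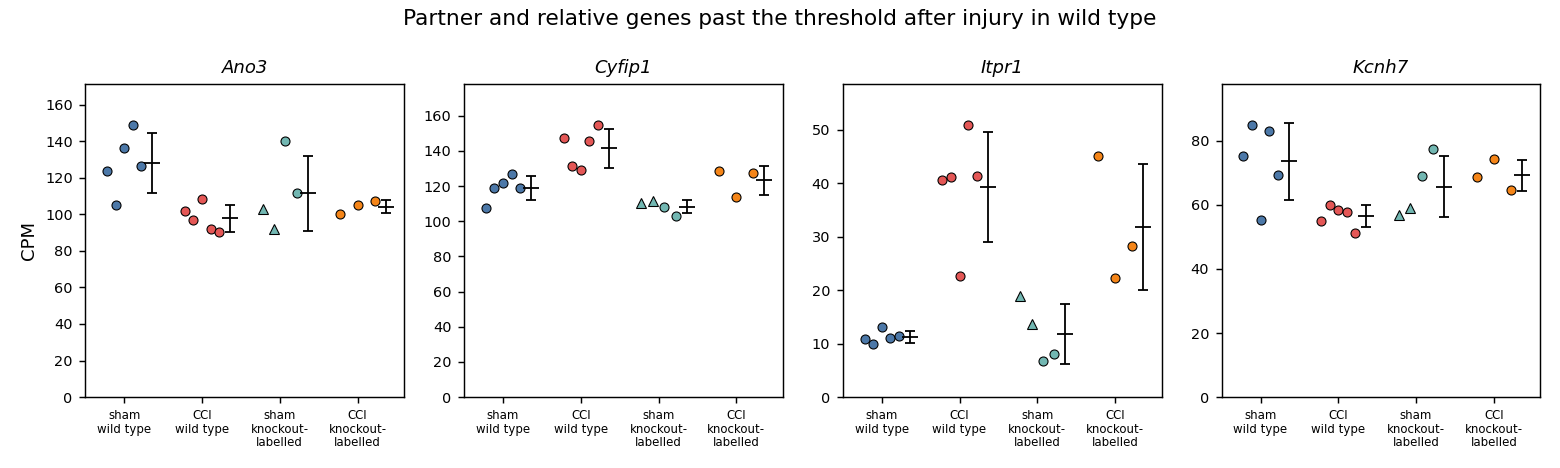
CPM of the 4 partner genes that passed the test for injury in WT, in each library by group. Itpr1 lies between 10.02 and 13.1 CPM in sham WT and between 22.7 and 51.0 CPM in CCI WT, with no overlap.

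The other 5 lists gave no call for injury in WT with edgeR. Among 12 tested accessory subunits and anchors of Kv7 and Erg channels Nedd4l, a ubiquitin ligase, had a log2 difference of −0.16 (edgeR adjusted p = 0.176). Among 11 genes of receptor and phosphoinositide control the smallest p-values were those of the phospholipases Plcb3 (−0.25, edgeR adjusted p = 0.133) and Plcb1 (−0.18, 0.292), and among 8 BK accessory subunits those of Lingo1 (−0.24, 0.118) and Kcnmb1 (−0.35, 0.153). Among 5 kinase and phosphatase partners of SK channels they were those of Ppp2ca (0.14, edgeR adjusted p = 0.0774) and Csnk2a1 (0.04, 0.886), and among 9 transcriptional regulators those of Rcor1 (0.23, 0.0557) and Ehmt2 (0.20, 0.236). The median log2 difference of the 9 regulators was 0.13, with 8 of 9 above 0, and that of the 9 other Kv7 and EAG-family channels was −0.28, with 7 of 9 below 0, against −0.007 over all genes. Below 0 were also 10 of 12 accessory subunits and anchors (median −0.10), 7 of 11 control genes (−0.08) and 5 of 8 BK subunits (−0.11). So were 6 of 8 calcium sources (−0.12) and 4 of 5 sodium-activated channel partners (−0.18). Of the 5 SK channel partners 4 were above 0 (0.04).

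In KO, injury gave 1 call among the same 67 genes (1.49%, against 0.0834% of all genes), Chrm1, the muscarinic receptor that closes M-channels, at 2.16 ± 0.82 CPM in sham KO and 0.517 ± 0.289 in CCI KO (−2.07 ± 0.39, edgeR adjusted p = 0.0449). It was lost in 13 of the 17 fits leaving out 1 library and held without sham WT library 3, CCI WT library 3, sham KO library 4 or CCI KO library 3. It was also lost when scaled to pan-neuronal counts (0.0625), and without sham KO libraries 1 and 2 together it was −2.11 (edgeR adjusted p = 0.0232). By genotype in CCI there were 2 calls (2.99%, against 0.684% of all genes). Chrm1 was lower in KO (−1.72 ± 0.38, edgeR adjusted p = 0.0248), a call lost without CCI WT library 5 or any of the 3 CCI KO libraries. Ppp2r1a, the scaffold subunit of the phosphatase that acts on SK channels, was higher there (0.28 ± 0.05, edgeR adjusted p = 0.00742), a call lost without CCI KO library 3 (0.0843) or when scaled to pan-neuronal counts (0.174). By genotype in sham the 1 call (1.49%, against 1% of all genes) was Kcnh8, an EAG-family channel, which was lower in KO at 2.60 ± 0.423 against 4.71 ± 0.959 CPM (−0.86 ± 0.20, edgeR adjusted p = 0.0297). That call was lost without sham KO libraries 1 and 2 together (0.201), without sham WT library 3, 4 or 5 or sham KO library 2 or 3 singly, with limma-voom (0.0737), and with a replicate block (0.0607).

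For the mean genotype effect, where 2.55% of all genes were past the threshold, Kcnh8 (−0.69 ± 0.14, edgeR adjusted p = 0.00649) and Ppp2r1a (0.22 ± 0.04, edgeR adjusted p = 0.000468) were past the threshold without each of the 17 libraries and without sham KO libraries 1 and 2 together. Kcnmb1, the BK subunit that raises calcium sensitivity, was lower in KO, at 62.6 ± 11.2 against 91.3 ± 6.23 CPM in sham and 57.7 ± 9.15 against 71.6 ± 12.2 CPM in CCI (−0.43 ± 0.10, edgeR adjusted p = 0.0210). It missed the threshold without CCI KO library 2 (0.0610) or 4 (0.0753), or without sham KO libraries 1 and 2 together (0.0948). Smooth muscle markers, whose cells also express Kcnmb1, summed to 21.7 to 287 CPM in sham WT, 31.0 to 49.3 in CCI WT, 12.7 to 59.8 in sham KO and 31.1 to 75.5 in CCI KO. The 287 CPM was sham WT library 3 alone, and the other sham WT libraries ran from 21.7 to 43.8 CPM. Kcnmb1 stood at 84.7 CPM in that library, the lowest of its group. The part of smooth muscle in the Kcnmb1 values was not tested. Chrm1 (−0.95 ± 0.24, edgeR adjusted p = 0.03) was lost without sham KO libraries 1 and 2 together (0.105) and without sham WT library 1 or 5, CCI WT library 5, sham KO library 2, or CCI KO library 2 or 4 singly.

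The transcripts whose levels tracked each channel most closely over the 17 libraries were ranked by Pearson correlation of log2 CPM among 13534 protein-coding genes. These values are descriptions: the libraries share groups and the highest of so many correlations is high by selection. Kcnt1 was closest to Plcb3 (r = 0.94), Tmem132e (0.93) and Dgkz (0.92), and Kcnt2 to Etnk1 (0.90), Kif5b (0.87) and G3bp2 (0.86). Kcnn4 was closest to Aars1 (0.93), Snapc2 (0.88) and Ankrd45 (0.88), and Kcnh2 to Tmem196 (0.89), Esrrg (0.89) and Flt3 (0.87). Kcnq3 was closest to Nsun2 (0.81), Sgtb (0.79) and Traf3 (0.78), and Kcnq5 to Luzp1 (0.86), Ola1 (0.82) and Nrn1 (0.80). Kcnma1 was closest to Rnf39 (0.87), F8a (0.85) and Ccser2 (0.84), Kcnn1 to Th (0.85), Samsn1 (0.85) and Mapk4 (0.83), and Kcnn2 to Tmem175 (0.79), Prr16 (0.79) and Armc5 (0.77). After removal of each group's mean these correlations ran from 0.57 (Kcnt2 with Kif5b) to 0.93 (Kcnh2 with Tmem196). For Kcnt2 they were then 0.78, 0.57 and 0.65 in the order named, and for Kcnq3 0.64, 0.68 and 0.64. Among the 9 channels themselves the closest pair was Kcnn1 and Kcnt1 (r = 0.78), followed by Kcnq5 with Kcnt2 (0.66) and Kcnma1 with Kcnt2 (0.64), and the most opposed pair was Kcnn1 and Kcnn4 (−0.50). With each group's mean removed, Kcnn1 and Kcnt1 stood at 0.79, Kcnq5 with Kcnt2 at 0.58 and Kcnma1 with Kcnt2 at 0.22, and the most opposed pair was Kcnh2 and Kcnn1 (−0.49, against −0.40 for Kcnn1 and Kcnn4).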

How the data were processed

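Total RNA from lumbar DRG was made into libraries with a SMART-Seq v4 kit, which keeps no strand, per the labels' protocols. The submitters' processing notes name bcl2fastq 2.20.0.422, STAR 2.7.11a and GRCm39. Neither source names the counter, its strand setting or the annotation. The values the authors deposited are raw read counts per gene. Beside the gene counts, 4.04% to 4.55% of each table's total was in no gene and 7.63% to 8.17% was ambiguous, and these lines were left out. Of 78298 identifiers 78168 matched GENCODE M39, which gave symbols, coordinates and merged exon lengths.

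Groups came from the sample titles. Genes were filtered by expression within groups (minimum count 10, minimum total 15), which kept 23972 of 46200 with any count, all 9 channels included. Libraries were scaled by TMM (factors 0.983 to 1.026) and tested with edgeR 4.0.16 (R 4.3.3) quasi-likelihood over all 17 libraries, with a mean per group and 13 residual degrees of freedom. P-values were Benjamini-Hochberg adjusted over the genes tested, with a threshold of 0.05. DESeq2 1.42.0 and limma 3.58.1 were alternatives.

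The channels and lists were chosen with earlier results of these data known. The text names the 9 channels, of each partner list the genes past the threshold or, for injury in WT, the 2 of smallest p where none was, and the 3 most correlated genes of each channel. Some results that this rule would name are not reported here. Promoters were read from RefSeq sequences of GRCm38.p6, a different build from that of the counts. No 2 of the 136 pairs of libraries held identical counts.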

Additional observations from a re-analysis of the deposited data

Results flagged for a closer look

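In 3 of the 27 groups of 4 or 5 libraries examined for the 9 channels, 1 library lay far from the others by Dixon's ratio, which chance alone gives in about 1 in 20 groups. Kcnn2 stood at 9.09 CPM in sham WT library 2, where the nearest library was at 6.63. Kcnt1 stood at 162 CPM in sham WT library 1, where the nearest was at 142, and at 155 CPM in CCI WT library 3, where the nearest was at 124. Without CCI WT library 3 the injury difference of Kcnt1 in WT was −0.26, with an edgeR adjusted p of 0.0213. That was the only 1 of the 17 fits leaving out 1 library to pass the threshold. Over all 17 the difference ran from −0.26 to −0.13, with edgeR adjusted p up to 0.508.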

How the results depend on the processing

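The number of channels past the threshold was 0 of 9 in each of the 6 comparisons as reported. For injury in WT it was 1 with the DESeq2 test (Kcnt2) and 1 with limma-voom (Kcnt1), and it ranged from 0 to 1 when each library was left out, with the 1 arising without CCI WT library 3 (Kcnt1). For the mean genotype effect it was 1 without the low-count filter, 1 with DESeq2 and 1 with limma-voom (Kcnq3 each time), and it ranged from 0 to 1, with Kcnq3 called without sham WT library 2 or without sham KO library 4. The cause was not tested. No fit moved a channel past the threshold in the other 4 comparisons, and no called value changed sign. Mean Kcnt1 in CCI KO was 118 CPM when scaled to pan-neuronal counts, against 124. That scaling moved the split of calls over all genes from 562 higher and 171 lower to 341 and 228 for injury in WT, from 62 and 178 to 33 and 208 for genotype in sham, and from 165 and 447 to 57 and 644 for the mean genotype effect, with shifts of the median gene under 0.1.

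Over all genes, calls for injury in WT, genotype in sham and the mean genotype effect were 733, 240 and 612 as reported, 1301, 702 and 1112 without the low-count filter, and 1128, 629 and 1027 with DESeq2. With limma-voom injury in WT gave 1192 and the mean genotype effect 1074. Calls for injury in KO were 20 as reported, 224 without the filter, 123 with DESeq2 and 147 without sham KO libraries 1 and 2, where genotype in sham gave 37 and the mean genotype effect 404. Labels give no meaning to the replicate numbers: of 22 same-numbered pairs across groups 1 had a correlation of deviations over 0.1, and 6 of 17 libraries correlated best with their own number. With a replicate block 0 of 9 channels were past the threshold in each comparison, genotype in sham gave 139 calls and the mean genotype effect 402.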
